A study of Rattus norvegicus with 24 samples.

Results

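A set of 6 genes of itch-sensing neurons was followed in single dorsal root ganglion (DRG) neurons of the rat: the peptide genes Sst and Nppb, and the cytokine receptor genes Il31ra, Osmr, Lifr and Il6st. They were chosen by name, as 6 of the 32881 genes that all count files share, and each was found in the files under its symbol. Their levels were read in every neuron that passed 3 limits, at least 500 genes, at least 1000 unique molecular identifiers (UMIs, 1 per captured RNA molecule) and less than 5% of UMIs from mitochondrial genes. That left 1433 of 1464 cells, 930 in dye-labelled samples and 503 in further libraries.

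Itch from the skin is carried by small unmyelinated sensory neurons. One class of them releases somatostatin (Sst) and B-type natriuretic peptide (Nppb) onto the spinal itch circuit, and it senses the skin cytokine interleukin-31 through a receptor that pairs Il31ra with Osmr. The other receptor genes belong to the same family: Osmr also pairs with gp130 (Il6st) for oncostatin M, and Lifr pairs with gp130 for leukaemia inhibitory factor, a cytokine released by injured nerve. These receptors signal through JAK kinases and STAT transcription factors.

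All rats were male Sprague-Dawley rats of 200 g, and the neurons came from the L4-5 DRG. In spared nerve crush (SNC) the tibial and common peroneal branches of the left sciatic nerve were crushed and the sural branch was left whole, while in sham rats the nerve was exposed without crush. In rats of the labelled set the same nerve had already been opened to view at an earlier operation, and dye was put into its branches through a glass micropipette, sham rats included. The dye-labelled neurons came from 4 sham samples, 4 at 1 day, 3 at 3 days and 5 at 7 days after SNC, and the 7 further libraries were sham at day 0 (3 libraries), 1 (2), 3 (1) and 7 (1). Single neurons were taken up by mouth pipette and read with a modified Smart-seq2 method that counts UMIs. The cell names do not carry the dye, so crushed and uncrushed neurons of an SNC sample are pooled here, and the share of each differed between samples. By the labels, sample 19-1 held 4 indirectly and 20 directly injured cells and sample 19-2 held 20 and 4, yet the injury gene Sprr1a reached 100 CPM (UMIs of the gene scaled to the same total in every cell or sample) in 5 of 24 cells of 19-1 and in 14 of 24 of 19-2.

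A sample held 24 to 96 cells and 4002503 to 28975829 UMIs in the labelled set, and 44 to 96 cells and 14004136 to 40732975 UMIs in the further set. The median cell had 239286 and 340145 UMIs. The neuron genes Tubb3, Uchl1, Snap25 and Prph had a UMI in all cells of both sets and Rbfox3 in 98.1% and 99.2%, and no cell repeated the values of another. Labelled neurons were grouped into 8 clusters and further neurons into 7 with the 6 genes left out of the clustering. Clusters were named only from fixed markers: NF-like (neurofilament), PEP-like (peptidergic), NP-like (non-peptidergic), cold-like, cLTMR-like (low-threshold touch) and itch-like.

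The promoters of the 4 genes that ran together in single neurons are shown, to let their start regions be compared. Each runs from 250 bases before to 30 bases after the annotated start, on the strand of the gene, in the RefSeq annotation of GRCr8 (a newer build than that of the count files). Capitals mark a full cAMP response element (TGACGTCA). Sst lies at chr11:90461296-90461575 (plus strand), Nppb at chr5:163699758-163700037 (plus), Il31ra at chr2:45916980-45917259 (minus) and Osmr at chr2:57688532-57688811 (minus).
Sst: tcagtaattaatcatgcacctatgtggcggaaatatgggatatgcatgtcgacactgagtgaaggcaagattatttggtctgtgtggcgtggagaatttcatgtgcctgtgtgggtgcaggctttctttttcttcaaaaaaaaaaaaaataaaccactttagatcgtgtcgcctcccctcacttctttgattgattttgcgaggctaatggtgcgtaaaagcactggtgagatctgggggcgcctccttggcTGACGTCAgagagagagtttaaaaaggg
Nppb: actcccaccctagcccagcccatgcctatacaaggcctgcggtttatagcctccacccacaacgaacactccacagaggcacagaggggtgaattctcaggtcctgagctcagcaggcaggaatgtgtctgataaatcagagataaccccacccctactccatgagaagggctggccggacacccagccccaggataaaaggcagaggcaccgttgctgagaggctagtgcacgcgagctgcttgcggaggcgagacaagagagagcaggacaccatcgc
Il31ra: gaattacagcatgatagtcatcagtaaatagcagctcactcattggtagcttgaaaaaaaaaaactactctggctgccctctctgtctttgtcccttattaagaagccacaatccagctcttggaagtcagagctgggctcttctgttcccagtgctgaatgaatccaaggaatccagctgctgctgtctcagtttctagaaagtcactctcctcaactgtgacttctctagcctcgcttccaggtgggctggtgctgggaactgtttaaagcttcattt
Osmr: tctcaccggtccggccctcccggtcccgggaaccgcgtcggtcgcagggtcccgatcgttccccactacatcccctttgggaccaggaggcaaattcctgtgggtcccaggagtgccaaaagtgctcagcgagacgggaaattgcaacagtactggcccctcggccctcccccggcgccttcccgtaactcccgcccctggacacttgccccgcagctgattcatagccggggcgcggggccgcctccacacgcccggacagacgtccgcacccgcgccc

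The Sst window held 1 cAMP response element, which began at position 3, counting the annotated start as position 1. The same motif was in 1.78% of 33469 promoters of this length. None of the other 5 windows held it on either strand. A STAT motif (TTCNNNGAA, in 8.42% of promoters) was in none of the 6 windows, and a RUNX motif (TGTGGT, in 16.3%) was only in that of Lifr, 49 bases before the start. The windows also differed in base composition, from 44.6% G and C in Sst and 45.7% in Il31ra to 58.2% in Nppb and 68.9% in Osmr, against a median of 51.4% over all promoters. On chromosome 2 of GRCr8, Il31ra is the neighbour of Il6st and Osmr is the neighbour of Lifr, with 0 protein-coding genes between either pair.

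Both peptide genes and Il31ra were concentrated in 1 cluster of labelled neurons. This cluster of 131 cells was led by Nppb, Sst, Il31ra, Necab2, Ifitm1 and Osmr and is called the Nppb cluster, since only 2 of the 5 fixed itch neuron markers (Ada and Jak1) were high in it, too few for a cell type name. It was picked after its values were seen, so its levels are a description. It held 14.1% of labelled cells and 13.8% of all their UMIs, but 86.6% of Sst UMIs, 89.4% of Nppb UMIs and 97.2% of Il31ra UMIs. Osmr followed with 73.5% of its UMIs there, while Lifr (16.9%) and Il6st (7.82%) did not.

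Sst stood at 624 CPM ± 312 (SD, n = 14 samples with at least 3 such cells) in the Nppb cluster and at means of 8.71 to 23.8 CPM in the other 7 clusters. Nppb stood at 429.5 CPM ± 166 against 2.78 to 11.1 CPM elsewhere, and Il31ra, the ligand-binding chain of the interleukin-31 receptor, at 100.3 CPM ± 47.8 against 0.357 to 1.12 CPM. The spread between samples was wide, from 205 to 1158 CPM for Sst, and it did not reach the level of any other cluster. Osmr, the partner chain, reached 213 CPM ± 84.9 in the Nppb cluster and had a second, lower site in NP-like neurons, at 64.6 CPM ± 49.6 (n = 8), where 16 of 59 cells had at least 100 CPM. PEP-like neurons had 13.9 CPM ± 10.0 of Osmr (n = 11), which overlaps the spread of the NP-like samples, and no Osmr UMI was found in any of the 5 samples with at least 3 cold-like cells.

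Lifr and Il6st were broad. Lifr means ran from 105 CPM ± 36 in cold-like neurons (n = 5) to 247 CPM ± 96.5 in the largest cluster, an unnamed one led by Cck, Arg1 and Kit (n = 16), with the Nppb cluster at 236 CPM ± 94.1, and neighbours in that order did not differ beyond their spread. Il6st, the shared signalling chain, was at 29.1 CPM ± 8.72 in the Nppb cluster and 29.5 CPM ± 12.3 in cold-like neurons, the lowest means, and at 60.2 CPM ± 12.1 in NF-like and 75 CPM ± 20.4 in NP-like neurons, the highest. The cluster with most of the itch receptor genes was therefore at the low end for gp130.

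**Figure D1:**
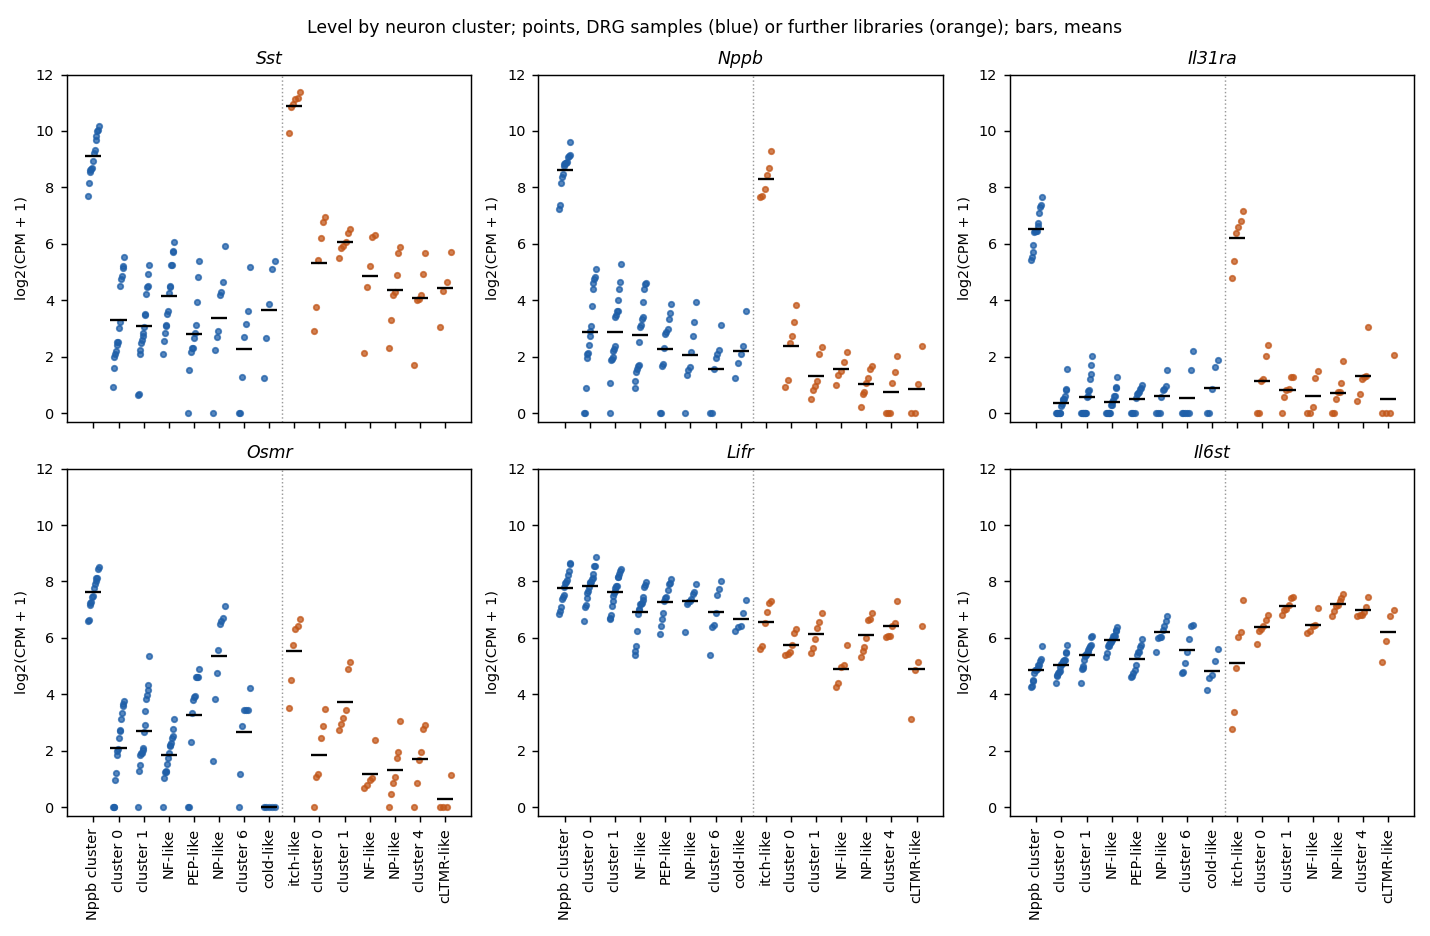
Level of each gene, as log2 of CPM + 1 on the vertical axis, in each cluster of neurons on the horizontal axis. Blue points are labelled DRG samples, orange points are further sham libraries, each with at least 3 cells of the cluster, and bars are means of the log values. Sst, Nppb and Il31ra stood far above all other clusters in the Nppb cluster and in the further itch-like cluster. In labelled samples Osmr was highest in the Nppb cluster, with a lower second level in NP-like neurons. In the further libraries the NP-like cluster held 56 Osmr UMIs, unnamed clusters 0 and 1 held 418 and 429, and the itch-like cluster held 538. The NP-like clusters of the labelled and further sets were not matched. The marker Mrgprb4 was among the leading genes of the labelled NP-like cluster and of further cluster 1, and was not high in the further NP-like cluster. Lifr and Il6st were spread over all clusters.

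The further sham libraries held a similar cluster of 27 cells (5.37% of cells, 3.63% of UMIs), in which 3 of the 5 itch markers (Ada, Jak1 and Cysltr2) were high, so that it is called itch-like. It held 58.5% of Sst, 79.9% of Nppb, 70.1% of Il31ra and 34.9% of Osmr UMIs. Sst was at 1994 CPM ± 574 there (n = 6), Nppb at 338 CPM ± 160, Il31ra at 83.2 CPM ± 43.0, Osmr at 58.2 CPM ± 36, Lifr at 103 CPM ± 47.7 and Il6st at 57.1 CPM ± 57.7. It was named from its markers, while the labelled cluster was picked by its Nppb level, which fixed its place in the order for Nppb.

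Shares of cells with a UMI depend on depth, so each cell was thinned to 20000 UMIs, which left out 44 labelled and 10 further cells with fewer. In the Nppb cluster (127 cells) Sst then had a UMI in 74.0% of cells, Nppb in 74.0%, Il31ra in 63.8% and Osmr in 89.8%, against 92.4%, 92.4%, 86.3% and 96.9% without thinning. NF-like neurons, large touch and position neurons, gave 30.7%, 12.5%, 1.14% and 7.39% after thinning and are set beside it for comparison. Whether these UMIs came from free RNA or from low expression was not tested. The median depth before thinning was 280861 UMIs in the Nppb cluster and 488870 UMIs in NF-like neurons. Lifr had a UMI in 98.4% of Nppb cluster and 79.0% of NF-like neurons, Il6st in 39.4% and 61.4%. In the itch-like cluster of the further set (26 cells) every cell had Sst, and the shares were 76.9% for Nppb, 80.8% for Il31ra and 69.2% for Osmr.

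The 4 genes met in the same neurons. After thinning, all 4 of Sst, Nppb, Il31ra and Osmr had a UMI in 62 of 886 labelled neurons (7.00%, exact 95% binomial interval 5.41 to 8.88%, which covers counting error only). All 62 were among the 127 cells of the Nppb cluster, where they made up 48.8% (39.9 to 57.8%), and none was among the other 759 cells, which allows a share of up to 0.485% there. That limit is for cells with a UMI of each gene at this depth, not for cells that express them: without thinning, 38 of 799 cells outside the cluster (4.76%) had a UMI of all 4. In the cluster, 4 cells had none of the 4 genes, 14 had 1, 20 had 2 and 27 had 3. The further set had all 4 in 14 neurons (2.84% of those thinned, 1.56 to 4.72%), 13 of them among the 26 itch-like cells.

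The 2 chains of the interleukin-31 receptor, Il31ra and Osmr, shared 84 labelled neurons after thinning, 80 of them in the Nppb cluster. Of these 84, 67 also had Sst, 73 had Nppb and 62 had both peptides. Osmr without Il31ra was seen in 134 neurons, of which 34 were in the Nppb cluster, so most such cells lay outside it. The pair for oncostatin M, Osmr with Il6st, was in 117 neurons and the pair for leukaemia inhibitory factor, Lifr with Il6st, in 410. At a limit of 100 CPM without thinning, 57 of 930 labelled neurons had both Il31ra and Osmr and 45 had all 4 genes, and every one of them was in the Nppb cluster. In the further set 4 of 503 had all 4 at that limit.

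**Figure D2:**
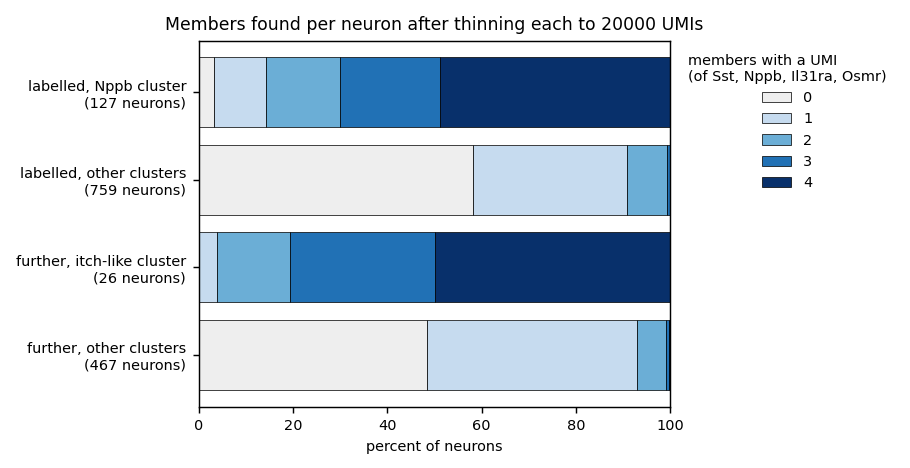
Percent of neurons (horizontal axis) with a UMI of 0, 1, 2, 3 or 4 of Sst, Nppb, Il31ra and Osmr, each cell thinned to 20000 UMIs, stacked for each group of cells on the vertical axis. All 4 genes were in 48.8% of Nppb cluster neurons and in 50.0% of itch-like neurons of the further set, and in 0 of 759 labelled neurons outside the Nppb cluster, where 38 of 799 had all 4 without thinning.

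Inside the Nppb cluster the 4 genes also varied together from cell to cell. Over its 131 cells, log levels of Il31ra and Osmr correlated with r = 0.70, Nppb and Il31ra with 0.61, Sst and Il31ra with 0.50, Sst and Nppb with 0.44, Nppb and Osmr with 0.40, and Sst and Osmr with 0.37. These are descriptions across cells that share libraries and depth, with no test. In the 27 further itch-like cells, Il31ra correlated with Osmr at 0.50 and with Sst at 0.54. Across all 14581 genes and 930 labelled cells, the genes most like Nppb were Il31ra (r = 0.69), Sst (0.63), Necab2 (0.59), Ifitm1 (0.58) and Osmr (0.53), and those most like Il31ra after Nppb were Necab2 (0.68), Osmr (0.66), Tnnt3 (0.62) and Ednra (0.61). Over the 503 further cells the same pairs with Nppb gave 0.63, 0.55, 0.56, 0.54 and 0.35. Osmr was most like Il31ra, Tmem233 (0.59), Anxa8 (0.57), Arhgap36 (0.56) and F2rl1 (0.56), while Lifr was most like Akap6 (0.49) and Il6st like Chp1 (0.50), neither of them with another of the 6 genes among its nearest 5.

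Sprr1a, a small proline-rich protein switched on in axotomised sensory neurons, was used to divide the cells. Of the labelled neurons, 413 of 930 had at least 100 CPM of it and are called Sprr1a-high, and 227 lay near the limit, between 50 and 200 CPM. Sham samples had 78 such cells of 215, including 19 of 24 in sham sample Xin, so a high level is not confined to SNC, and SNC samples ran from 5 of 24 (19-1) to 62 of 96 (S). Against sham, Sprr1a itself did not pass at any day over all labelled neurons, with log2 fold changes of 0.04, −0.13 and −0.11 at 1, 3 and 7 days (edgeR adjusted p = 0.985, 0.995 and 1.00). The division is thus one by the level of Sprr1a and not by crush. In the further sham libraries 1 of 503 cells had a Sprr1a UMI. The test below compared Sprr1a-high with Sprr1a-low cells (335 and 380) of the same 12 SNC samples.

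Sprr1a-high neurons had less of both peptide genes and of both interleukin-31 receptor chains. Sst ranged from 2.87 to 142.5 CPM (median 18.9) in the high class and from 30.1 to 453.5 CPM (median 130.5) in the low class, lower in the high class of 12 of 12 samples. That was a log2 fold change of −2.75 ± 0.26 (SE), 6.72-fold lower, with an adjusted p of 1.77e-06 (edgeR quasi-likelihood test with the sample as a block, Benjamini-Hochberg adjustment, as for all adjusted p-values here unless another test is named). Of all 12110 genes tested, 27.2% passed, 13.9% lower and 13.3% higher, and of the 6 genes 5 passed, all lower.

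Nppb had medians of 22.5 CPM (4.36 to 86.7) in the high class and 98.1 CPM (3.35 to 352.6) in the low class, a fold change of −2.13 ± 0.42 on the log2 scale, lower in 11 of 12 samples (edgeR adjusted p = 0.00114). Il31ra had 2.69 CPM (0 to 11.7) against 25.8 CPM (4.39 to 66.7), a log2 fold change of −2.93 ± 0.25 in 12 of 12 samples (edgeR adjusted p = 5.88e-07). Osmr had 14.0 CPM (1.45 to 33.1) against 68.3 CPM (5.56 to 126.9), −2.09 ± 0.23 on the log2 scale in 12 of 12 (edgeR adjusted p = 5.10e-06). The ranges of the classes overlapped for all of them, so the difference stood within samples.

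The LIF receptor chain did not follow. Lifr was at 203 CPM (76.7 to 306) in the high class and 168 CPM (48.3 to 252) in the low class, higher in 9 of 12 samples, with a log2 fold change of 0.31 ± 0.13 that missed the threshold (edgeR adjusted p = 0.0783). It passed at a Sprr1a limit of 30 CPM (0.38, adjusted p = 0.0291) and of 300 CPM (0.48, adjusted p = 0.000715), and Lifr belongs to a gene module that the study chose on these samples. Il6st was slightly lower, 40.6 against 49.8 CPM in the median, −0.29 ± 0.09 on the log2 scale in 11 of 12 samples (edgeR adjusted p = 0.0308), a call that was lost when sample 13, 14, 17-1 or 17-3 was left out (adjusted p up to 0.0761).

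Cells of the Nppb cluster were 27 of the 335 Sprr1a-high neurons (8.06%) and 69 of the 380 Sprr1a-low neurons (18.2%). With that cluster taken out, the peptide genes turned in direction and did not pass, Sst at 0.28 ± 0.34 (edgeR adjusted p = 0.603) and Nppb at 0.50 ± 0.28 on the log2 scale (adjusted p = 0.217), and Il31ra was too low to test. Osmr stayed lower outside the cluster (−1.09 ± 0.30, edgeR adjusted p = 0.0149), as did Il6st (−0.37 ± 0.09, adjusted p = 0.00880), and Lifr was then higher (0.42 ± 0.14, adjusted p = 0.0368), where 21.9% of 11814 genes passed. Of 10290 labelled Osmr UMIs, 7560 were in the Nppb cluster and 1372 in NP-like neurons. The share of NP-like neurons in each class was not tested, so fewer such neurons and less Osmr per neuron cannot be told apart. A lower level of the peptides was thus measured only with the Nppb cluster included, and the next comparison takes that cluster alone.

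Within the Nppb cluster, 38 cells were Sprr1a-high and 93 Sprr1a-low, 17 of the 131 near the limit, and 10 samples (3 sham, 7 SNC) had at least 2 cells in each class. This comparison, with sham samples included, was added after the data were seen. Sst ranged from 0 to 380.7 CPM (median 57.4) in the high class and from 546 to 1444 CPM (median 1132) in the low class, and the classes did not overlap. Nppb ranged from 1.04 to 205 CPM (median 76.1) against 226.5 to 960 CPM (median 591), also without overlap, which 1.06% of the 8091 genes tested showed in this direction. The log2 fold changes were −3.26 ± 0.31 for Sst (edgeR adjusted p = 1.70e-07) and −3.07 ± 0.28 for Nppb (adjusted p = 1.10e-07), each lower in 10 of 10 samples.

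Il31ra was at 25.0 CPM (0 to 104.9) in the high class and 123 CPM (62.8 to 254) in the low class, a log2 fold change of −2.46 ± 0.24 in 10 of 10 samples (edgeR adjusted p = 1.82e-07). Osmr was at 91.7 CPM (27.3 to 269) against 278 CPM (105 to 447), −1.54 ± 0.17 on the log2 scale in 10 of 10 samples (edgeR adjusted p = 8.92e-07). Lifr (0.22 ± 0.11, adjusted p = 0.187) and Il6st (0.17 ± 0.22, adjusted p = 0.646) did not pass. So 4 of the 6 genes passed and all 4 were lower, where 21.7% of all genes passed and 10.7% were lower. The difference between classes was not shown to differ between sham and SNC samples: by an exact two-sided permutation test over 120 arrangements of 3 against 7 samples, Nppb had the lowest p (mean log2 difference −5.85 in sham and −2.83 in SNC, p = 0.0333, adjusted p = 0.200).

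**Figure D3:**
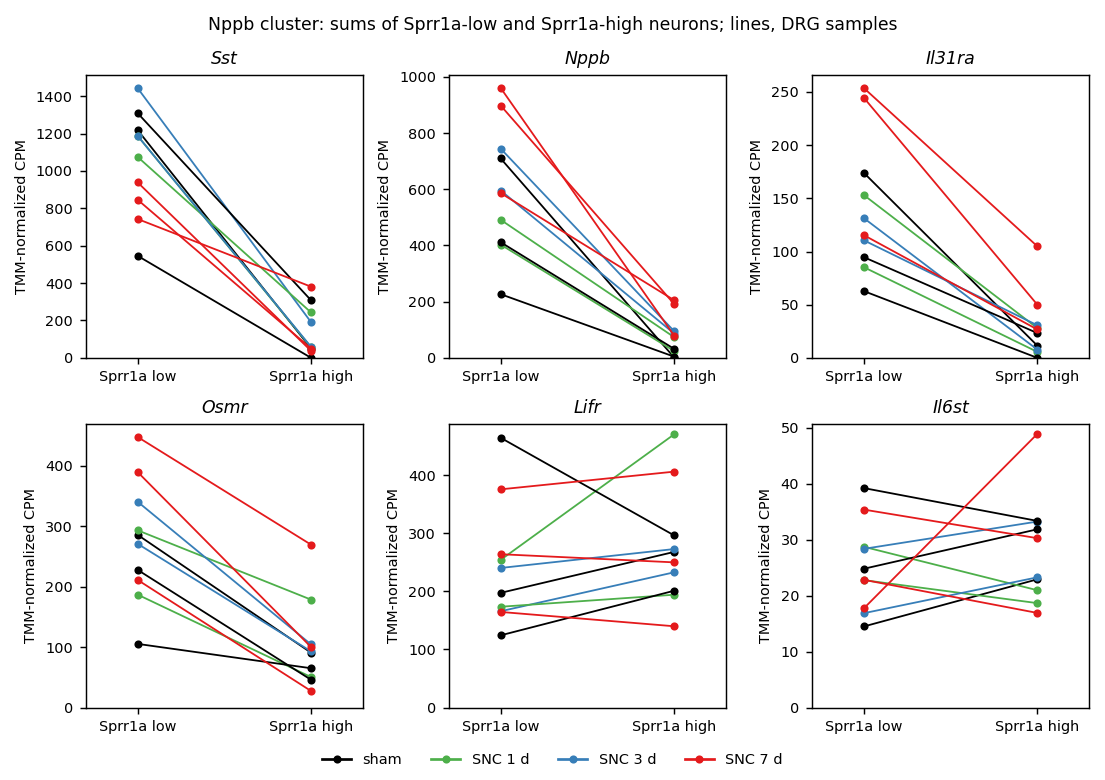
Level of each of the 6 genes (CPM after TMM scaling, vertical axis) in Sprr1a-low and Sprr1a-high neurons of the Nppb cluster, with a line for each of the 10 samples. The lines of Sst, Nppb, Il31ra and Osmr fall in 10 of 10 samples, and those of Lifr and Il6st go both ways.

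The Nppb cluster is not uniform, and this bears on Sst. At a finer clustering (resolution of 0.8) it parted into 56 cells led by Sst, Necab2 and Nppb, of which 1 was Sprr1a-high, and 75 cells led by Ifitm1, Nppb, Anxa8, Osmr and Il31ra, of which 37 were Sprr1a-high. The first held 15 sham and 41 SNC cells and the second 20 and 55, so both were present without crush in the labelled set. Of the labelled sham cells, 78 of 215 were themselves Sprr1a-high. In the further libraries the itch-like cluster did not part at this resolution, and its 27 cells had at least 658 CPM of Sst each. Whether the second subcluster goes with injury or is a neuron type of its own was not tested. Among Sprr1a-low cells the first subcluster had 1337 CPM of Sst and the second 154 CPM, close to the 112 CPM of its Sprr1a-high cells. Nppb differed less between them, at 655 and 353 CPM, and was 129 CPM in the Sprr1a-high cells of the second.

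Within the second subcluster alone (9 samples with at least 2 cells in each class, again added after the data were seen) 2.57% of 7072 genes passed, 1.23% lower. Sst was then lower in 6 of 9 samples, with a log2 fold change of −0.92 ± 0.37 that did not pass (edgeR adjusted p = 0.257). Nppb stayed lower in 9 of 9 samples, at 42 CPM (0.999 to 92.2) against 214 CPM (71.6 to 918), a log2 fold change of −2.77 ± 0.31 (edgeR adjusted p = 5.33e-06). Osmr was lower in 9 of 9 (−1.23 ± 0.24, edgeR adjusted p = 0.00353) and Il31ra in 7 of 9 (−2.27 ± 0.44, adjusted p = 0.00360). The Sst difference over the whole cluster went with the division into subclusters, while those of Nppb, Il31ra and Osmr were also found inside 1 of them.

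By level of Sprr1a, the 78 cells of the Nppb cluster under 30 CPM had 1095 CPM of Sst, the 15 cells from 30 to 100 CPM had 180 CPM, the 19 from 100 to 300 CPM had 253 CPM and the 19 above had 65.0 CPM. Nppb fell in steps over the same bins, at 603, 292, 228 and 74.8 CPM, as did Il31ra at 135, 83.7, 61.4 and 26.8 CPM and Osmr at 261, 170, 147 and 97.3 CPM. Lifr (209, 250.1, 293 and 257 CPM) and Il6st (26.6, 25.2, 26.9 and 34.2 CPM) had no such order. The upper 3 bins hold under 20 cells each and were not tested. Over the single cells of the cluster, the log level of Sprr1a correlated with that of Sst at −0.46, Nppb at −0.47, Il31ra at −0.45, Osmr at −0.26, Lifr at 0.27 and Il6st at 0.05, while over the 799 cells outside it the values were 0.01, 0.10, 0.03, −0.11, 0.30 and −0.01.

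**Figure D4:**
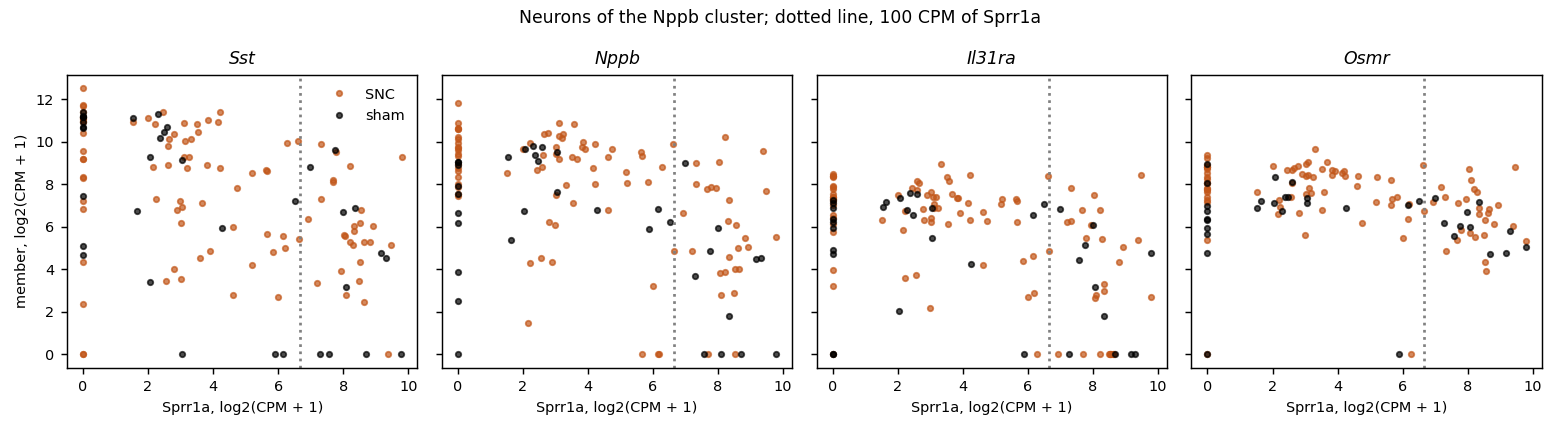
Single neurons of the Nppb cluster, with the level of Sprr1a on the horizontal axis and that of Sst, Nppb, Il31ra or Osmr on the vertical axis. Both are log2 of CPM + 1, and a dotted line marks 100 CPM of Sprr1a. Left of the line, summed cells had 1095 CPM of Sst under 30 CPM of Sprr1a and 180 CPM from 30 to 100 CPM. Right of the line, they had 253 CPM of Sst from 100 to 300 CPM of Sprr1a and 65.0 CPM above. The level of Sst thus did not fall at the line itself. Summed Nppb, Il31ra and Osmr were lower at each of these steps of Sprr1a.

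Depth did not part the classes by much in the cluster, with medians of 277380.5 UMIs in Sprr1a-high and 280861 UMIs in Sprr1a-low cells. Markers of satellite glia and Schwann cells summed to a median of 215 CPM (85.0 to 1153) in the high class and 284 CPM (86.9 to 891) in the low class, and 0 of the 4 glial genes tested passed. Immune markers summed to 18.9 CPM (0 to 46.0) and 4.09 CPM (0 to 23.7), with Ptprc at 0 in both classes, and fibroblast and vessel markers to 1.14 and 1.5 CPM, with Cldn5 at 0. The part of immune RNA in the result was not tested.

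Other genes of the pathway were taken from the fixed lists, to be read against the 27.2% of all genes that passed. In the SNC samples, none of 4 tested receptor partner genes passed, and 4 of 15 JAK-STAT genes were higher in Sprr1a-high neurons, the kinase Jak2 (0.77 on the log2 scale), Stat5a, Stat5b and the inhibitor Cish, a share near that of all genes. Of 9 tested other itch receptors and channels, 5 were lower, including the heat channel Trpv1 (−1.63) and the protease receptor F2rl1 (−2.17), and 2 were higher (Htr1f and Il13ra1). Among 6 tested peptide genes of the itch relay, Nmb and Sstr2 were lower and Sstr4 higher. All 6 tested injury genes were higher, with Gal at 1.27, Atf3 at 0.99 and Jun at 0.51, against a median over all genes of −0.01.

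Within the Nppb cluster, where 21.7% of all genes passed, 5 of 5 tested injury genes were higher, Gal by 2.06 and Atf3 by 1.18 on the log2 scale. Jak2 (0.93), Cish (1.09) and Ptpn11 (0.26) were higher and Jak1 (−0.24) lower among 7 tested JAK-STAT genes. Trpv1 (−1.92), F2rl1 (−1.47) and the irritant channel Trpa1 (−0.96) were lower among 6 tested itch receptors, and Nmb (−0.92) and Sstr2 (−1.86) among 3 peptide relay genes. The 1 receptor partner tested did not pass. These values are over the whole cluster, where the Sprr1a classes go with the division into subclusters. None is given inside the second subcluster, where 2.57% of genes passed, so class and subcluster cannot be told apart for these genes.

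Against sham, none of the 6 genes passed the threshold at any day in the fit of the 4 groups. All 1 and 3 day samples were reverse transcribed in the later year, but of the sham samples only 18 was. Crush and year can thus hardly be told apart at 1 and 3 days. Over all labelled neurons edgeR called 0 of 14239 genes at 1, 3 and 7 days (0.0% at each), with 1243, 594 and 476 genes at an unadjusted p under 0.05 and 9, 1 and 0 called by DESeq2. In bulk sums such as these, fewer neurons of a type and less RNA per neuron cannot be told apart. The adjusted p of the 6 genes ran from 0.653 to 0.834 at 1 day, from 0.966 to 0.992 at 3 days and was 1.00 at 7 days (edgeR). Outside the Nppb cluster edgeR likewise called 0 of 13901 genes at each day, with 1082, 551 and 449 genes at an unadjusted p under 0.05 and 15, 1 and 0 called by DESeq2.

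Sst was at 40.8, 49.0, 104.7 and 260 CPM in the sham samples Xin, 4, 10 and 18. It was at 148, 71.5, 16.8 and 40.4 CPM at 1 day, at 35.3, 197.6 and 277.5 CPM at 3 days, and at 26.3, 286, 60.7, 70.7 and 48.4 CPM at 7 days. Every group thus ran over a wide range that covered most of the sham values, and the 7 day value of 286 CPM belonged to sample 19-2, in which 8 of 24 neurons (33.3%) were of the Nppb cluster. That share ran from 4.17% to 33.3% over the labelled samples with a median of 13.5% and did not differ from sham at any day (exact permutation p = 0.40, 0.80 and 0.667).

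Nppb was at 47.3, 19.2, 55.2 and 73.5 CPM in sham, at 62.5, 24.5, 12.4 and 18.1 CPM at 1 day, at 41.4, 103.2 and 141.2 CPM at 3 days, and at 59.4, 209.7, 114.1, 80.9 and 58.5 CPM at 7 days. The 7 day samples lay at the upper end of sham or above it, with a log2 fold change of 1.09 ± 0.51 that did not pass (edgeR adjusted p = 1.00). Il31ra ran from 5.43 to 16.4 CPM in sham and from 1.65 to 35.7 CPM after SNC, and Osmr from 21.1 to 42.6 CPM and from 4.5 to 90.9 CPM. Lifr ran from 123 to 279 CPM in sham and from 70.5 to 283 CPM after SNC, and Il6st from 40.1 to 73.2 CPM and from 33.2 to 62.9 CPM. By exact permutation tests over samples, 0 of 18 differences in level and 0 of 18 in the share of cells passed after adjustment (lowest adjusted p = 0.494 and 0.571), and the smallest p these groups allow is 0.0286 at 1 day, 0.0571 at 3 days and 0.0159 at 7 days. After adjustment over 18 tests, a gene alone at any of these limits could not pass, so these tests could hardly have called a gene.

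Within the Nppb cluster, 14 samples had at least 3 cells, and again edgeR called 0 of 10212 genes at each day (0.0%), with 519, 611 and 407 genes at an unadjusted p under 0.05 and 0, 0 and 1 by DESeq2. Nppb was at 340.6, 353.7 and 181.5 CPM in sham and at 417.4, 297.3 and 147.3 CPM at 1 day. It was at 560.7, 543.8 and 457.1 CPM at 3 days and at 453.4, 443.4, 778.3, 590.4 and 459.9 CPM at 7 days, all above the sham samples. This absence of overlap on the higher side was shared by 5.96% of genes at 3 days and 1.34% at 7 days. At 3 days crush and year of reverse transcription can hardly be told apart, since only sample 18 of the sham samples is of the later year. The log2 fold changes were 0.82 ± 0.29 (edgeR adjusted p = 0.818) and 0.89 ± 0.27 (edgeR adjusted p = 0.999), not past the threshold. Both passed when no filter on low counts was used (edgeR adjusted p = 0.000162 and 1.41e-06). With the reverse transcription date as a block, added after the data were seen, Nppb passed at 7 days (1.42 ± 0.23, edgeR adjusted p = 0.00702), where 18 of the 10212 genes passed. That fit has 2 residual degrees of freedom, and it compares SNC with sham through the dates that sham samples 4 and 10 share with 7 day samples 8 and 9. No 3 day sample shares a date with sham. Only 3 day sample 17-3 shares a date with 7 day samples (19-1 and 19-2), so the 3 day value of Nppb in that fit (1.45) rests on this sample alone.

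Osmr in the cluster was at 183.4, 99.5 and 191.4 CPM in sham and 373.6, 215.1 and 275.7 CPM at 3 days, again without overlap. The change was 0.88 ± 0.35 on the log2 scale (edgeR adjusted p = 0.818). With the date block it was 1.34, a value that rests on sample 17-3 alone. Sst was at 610, 1159 and 435 CPM in sham and 205, 607, 410, 512 and 384 CPM at 7 days, −0.80 ± 0.38 on the log2 scale (edgeR adjusted p = 0.999). The direction of Sst and of Nppb at 7 days thus differed, though neither passed in this fit. The other changes had adjusted p-values from 0.823 to 0.999.

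**Figure D5:**
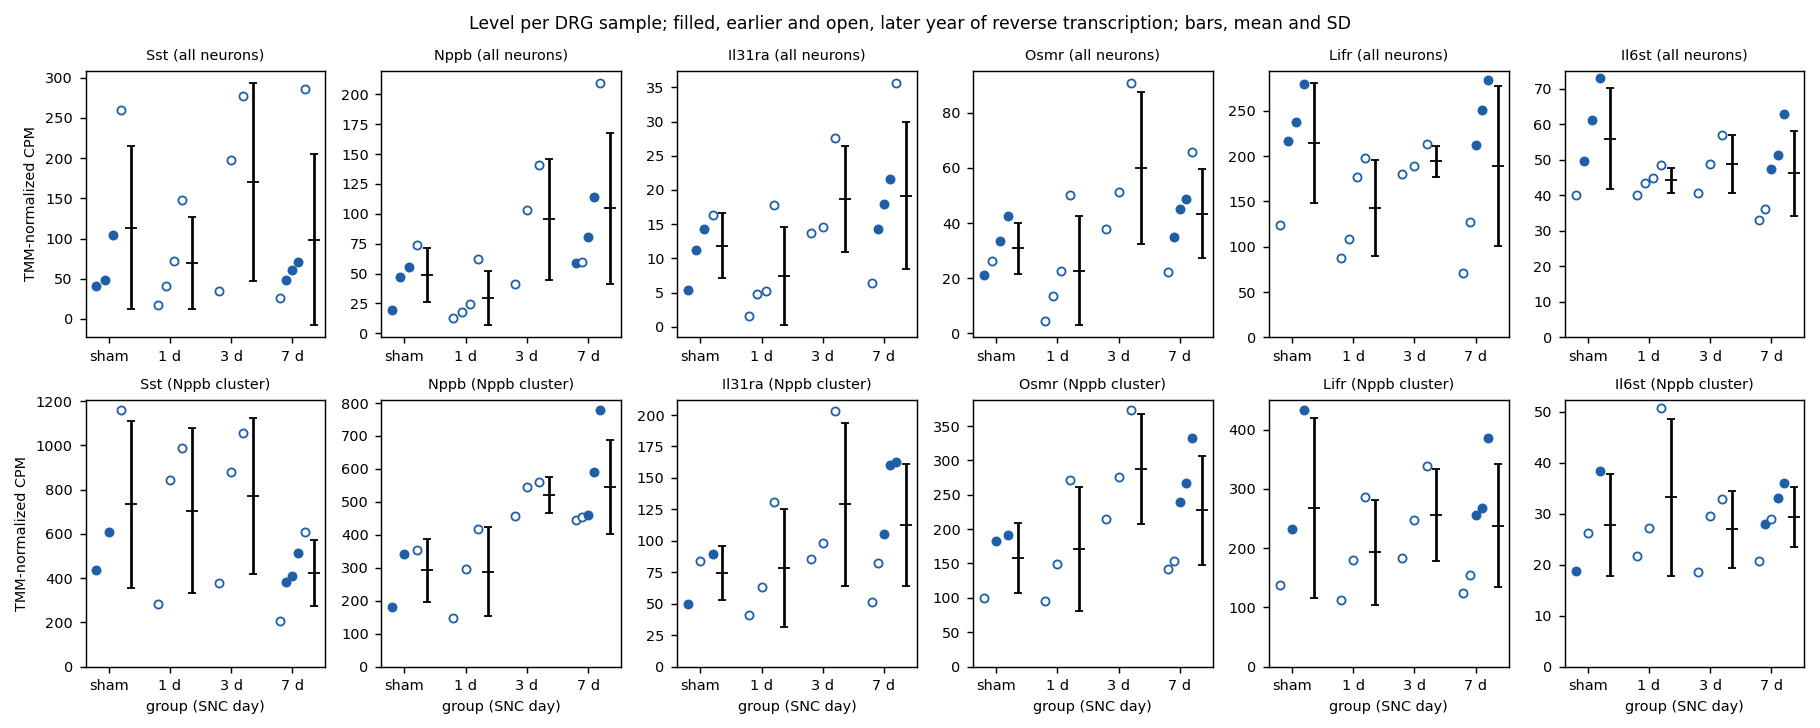
Level of each gene (CPM after TMM scaling, vertical axis) per DRG sample in sham and at 1, 3 and 7 days after SNC, over all labelled neurons (top) and in the Nppb cluster (bottom). Points are samples, filled for the earlier and open for the later year of reverse transcription, and bars are the mean and SD. The groups overlap over all neurons for all 6 genes, while Nppb in the cluster at 3 and 7 days lies above the 3 sham samples.

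Among the further sham libraries, Sst was at 81.7, 117.6 and 27.6 CPM at day 0 and at 127.4, 104.3, 123.6 and 245.5 CPM at days 1 to 7, a log2 fold change of 0.99 ± 0.47 (edgeR adjusted p = 0.531). None of the 6 genes passed (adjusted p 0.531 to 0.955), nor did any of 16175 genes (0.0%), with 1503 at an unadjusted p under 0.05 and 195 called by DESeq2. Without library S7, edgeR called 1992 genes.

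The labelled and further sham neurons differed in the receptor genes. Osmr was at 33.99, 28.2, 43.8 and 20.96 CPM in the labelled sham samples and at 2.34 to 14.9 CPM (median 5.94) in the further libraries, a log2 fold change of 2.19 ± 0.41 (edgeR adjusted p = 0.00128). Lifr was at 132 to 277.5 CPM against 32.3 to 84.7 CPM (1.86 ± 0.26, adjusted p = 0.000203), and neither gene overlapped between the sets, which held for 10.9% of genes on the higher side. Nppb (1.83 ± 0.45, adjusted p = 0.00594) and Il31ra (1.43 ± 0.51, adjusted p = 0.0381) were higher in the labelled set and Il6st lower (−0.91 ± 0.18, adjusted p = 0.00185), while Sst did not differ past the threshold (0.06 ± 0.54, adjusted p = 0.939). This comparison was added after the data were seen. It called 40.6% of 15791 genes, with a median of −0.15 over all genes, and dye labelling, collection and library cannot be told apart from the set. The Nppb cluster held 4.17 to 19.1% of cells in the labelled sham samples, and the itch-like cluster held 3.49 to 7.37% in the further libraries. The part of these shares in the result was not tested. All 7 tested injury genes were higher in the labelled sham neurons, with a median log2 fold change of 2.06, and their part in the result was not tested.

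Between the Nppb cluster of 3 labelled sham samples and the itch-like cluster of 6 further libraries, 33.1% of 9183 genes passed. Of 6 tested injury genes, 5 were higher in the labelled samples (median of 3.94 on the log2 scale), and their part was again not tested. Sst was at 624.7, 1168 and 446.1 CPM in labelled sham samples and at 1021 to 2641 CPM in the further libraries, −1.39 ± 0.31 on the log2 scale (edgeR adjusted p = 0.00279). The clusters differ in make-up. At the finer clustering, over all labelled sham samples, 20 sham cells of the Nppb cluster were in the subcluster with less Sst and 15 in the one led by Sst. The further itch-like cluster did not part, and the part of this in the Sst difference was not tested. Osmr was at 187.8, 100.3 and 196.0 CPM against 9.86 to 89.5 CPM (1.48 ± 0.43, edgeR adjusted p = 0.0150), without overlap on the higher side as for 15.5% of genes, and Lifr at 237.6, 138.4 and 444.2 CPM against 48.2 to 148.5 CPM (1.41 ± 0.35, adjusted p = 0.00594). The Osmr call was lost without sample 10 or 4 (adjusted p = 0.0859 and 0.0836) and that of Lifr without sample 4 (0.118). Nppb (−0.16 ± 0.32), Il31ra (−0.11 ± 0.39) and Il6st (−1.03 ± 0.71) did not pass, with adjusted p from 0.276 to 0.855 by edgeR.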

How the data were processed

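The values are UMI counts as deposited by the authors, whole numbers per gene and cell without normalization. Per the submitters' processing notes and the study's methods, reads were sorted by cell barcode and aligned (STAR, Rnor_6.0), then given to genes by featureCounts with SAMtools, and UMI-tools kept 1 count per UMI. Counts of the same RNA from a paralog or an overlapping gene cannot be told apart where the counting merged them. Each file lists 32883 genes, of which 32881 are in all files.

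The 6 genes, the gene lists and the comparisons were chosen with earlier results of these data known. Cells with at least 500 genes, 1000 UMIs and under 5% of UMIs from 13 mitochondrial genes were kept. They were clustered per set with Seurat 5.3.0 in R 4.3.3 (2000 variable genes without the 6 genes, a scale of 10000, 40 principal components, a resolution of 0.5). No doublet caller was run, since neurons were picked singly. The planned fallback for the cluster to follow, the highest sum of Nts, Cysltr2 and Htr1f, would have picked the cold-like cluster, so the cluster with the highest Nppb was used, a choice made after its values were seen.

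Counts were summed per DRG sample (libraries S-2 and S-3 are 1 sample) and tested in edgeR 4.0.16 (quasi-likelihood, TMM scaling, filterByExpr), with Benjamini-Hochberg adjustment over all genes tested and a threshold of 0.05. CPM between groups are TMM-scaled. Those between clusters, within the second subcluster, by bin of Sprr1a level and in single cells are not. SNC was tested against sham in 1 fit of 4 groups, and Sprr1a classes (limit of 100 CPM) with the sample as a block, because both classes come from the same sample. Levels (log2 of CPM + 1) and shares of cells were also tested by exact two-sided permutation with SciPy 1.17.1 in Python 3.11.15. Cells were thinned to 20000 UMIs for shares. The labels do not say which samples are separate animals, so p-values measure the spread between these samples. Alternatives were DESeq2 1.42.0 and its size factors, no filter, thinned cells, the year or date of reverse transcription, merged samples, other Sprr1a limits and clusterings, and each sample left out.

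Genes named are the 6 genes, the 5 genes most like each over cells, and genes of the fixed lists past the threshold. Sequences are from RefSeq on GRCr8, which gave all 6 promoters, and no coordinate was carried between builds. The gp130 ligand list is not reported here.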

Additional observations from a re-analysis of the deposited data

Results flagged for a closer look

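In groups of 4 to 10 samples, 48 sets of values were searched for a sample far from the others, and 6 were found, where chance gives about 1 in 20 groups. Sst over all labelled neurons was 286 CPM in sample 19-2 at 7 days, against 26.3 to 70.7 CPM in the other 4 samples, and Sst had a UMI in 75% of its thinned cells. The same sample had the largest share of Nppb cluster cells (33.3%). Within the Nppb cluster, the log2 difference in Sst between Sprr1a-high and Sprr1a-low cells was −9.10 in sham sample 4, where the high class had 0 Sst UMIs. Il31ra had a UMI in 14.8% of thinned cells in sample 13 at 1 day, Il6st in 63.6% in sham sample Xin, and Nppb in 25.5% in sham sample 18, each above the other samples of its group.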

How the results depend on the processing

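Recomputing 60 results under the alternatives gave 898 values, of which 796 kept direction and side of the threshold, lay within the spread between samples, or were a similar count. The labels give SNC and sham samples no shared replicate numbers, so samples could not be paired by label. Dates of reverse transcription, from the study's sample list, are shared by sham 4 with 7 day sample 8 and by sham 10 with 9, and with the date as a block the genes called at 1, 3 and 7 days were 1, 3 and 0 over all labelled neurons, 3, 3 and 1 outside the Nppb cluster and 153, 10 and 18 within it. In that fit Nppb at 7 days was 1.54 over all labelled neurons (edgeR adjusted p = 1.00), and Sst at 7 days was −0.17 in the cluster (adjusted p = 0.962). For the Sprr1a classes, the fit without the sample block called 1915 genes in SNC samples and the 4 falls of Sst, Nppb, Il31ra and Osmr kept their call, while Il6st (−0.27, edgeR adjusted p = 0.146) lost it. Against sham, genes called in all labelled neurons were 9 at 1 day and 1 at 3 days with DESeq2, 1 at 3 days without the filter or with thinned cells, and 1 at 1 and at 3 days when reverse transcription year was a term. Outside the Nppb cluster they were 15 and 1 with DESeq2, 1 at 3 days without the filter, and 1 and 1 with the year. In the Nppb cluster they were 36, 49 and 49 without the filter, where Nppb at 3 and 7 days, Osmr at 3 days and Sst at 7 days passed, 1 at 1 and 3 days with the year and 1 at 7 days with DESeq2. Leaving out 1 sample gave 0 to 1 genes in each of these comparisons, and 0 to 1992 in the further libraries, where DESeq2 called 195.

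For Sprr1a, thinning gave 1456 genes in SNC samples and 324 in the Nppb cluster, a limit of 300 CPM gave 1036 there, and the subcluster gave 182. Sst (0.28) and Nppb (0.50) reversed outside the Nppb cluster, without passing. Between the Nppb cluster of labelled sham samples and the further itch-like cluster, thinning gave 1405 genes and leaving out 1 sample gave 1681 (without 10) to 3291, with Nppb from −0.40 to 0.080 and Il31ra from −0.30 to 0.10. Between all sham neurons of both sets, Sst was −0.27 with thinned cells and −0.76 (without 18) to 0.41 with a sample left out, and Il31ra lost its call with thinned cells and without Xin, 10, 18, S2, S6 or S7 (adjusted p 0.0504 to 0.109).

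With the 6 genes kept in the clustering, a resolution of 0.8 or 20 principal components, the cluster with the highest Nppb was the smaller one led by Sst, and its levels were 1334, 1281 and 1288 CPM for Sst, 715, 710 and 707 CPM for Nppb, 181, 188 and 188 CPM for Il31ra, and 321, 327 and 328 CPM for Osmr. All 4 genes were in 15.2% of labelled and 9.54% of further neurons without thinning, and in 4.84% and 0.795% at 100 CPM. Causes of these changes were not tested, apart from the smaller cluster, which holds fewer cells by construction. Depth limits shares after thinning to RNA above 1 UMI of 20000.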
